A study of Homo sapiens with 4 samples.

Results

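The 10 genes described here encode integrin subunits: the alpha chains ITGA2, ITGA3, ITGA5, ITGA6 and ITGAV, and the beta chains ITGB1, ITGB3, ITGB4, ITGB5 and ITGB8. They were taken by gene symbol from a table of 20263 genes, and all 10 had a row and passed the filter on low counts. The cells were MDA-MB-231, a widely used human line of triple-negative, mesenchymal-like breast cancer. Cultures in medium with 10% fetal bovine serum received Neoribocic or DMSO, its solvent, for 24 h. Neoribocic was taken to be the Rib_CA of the treatment protocol. Each group had 2 libraries. No dose is stated in the labels. The labels do not say whether a group's libraries came from separate cultures, so p-values reflect the spread between libraries alone, and that spread may be technical.

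Integrins are heterodimers of an alpha and a beta chain that hold cells to the extracellular matrix and pass signals in both directions across the membrane. The alpha chain largely sets the ligand. ITGA2 pairs with ITGB1 to bind collagen, ITGA3 and ITGA6 bind laminins, and ITGA5 with ITGB1 is the classical fibronectin receptor. ITGAV joins ITGB1, ITGB3, ITGB5 or ITGB8 and reads the RGD motif of vitronectin, fibronectin and latent TGF-beta. ITGB1 serves many alpha chains, whereas ITGB4 pairs with ITGA6 alone and anchors hemidesmosomes to keratin filaments.

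The line's mesenchymal markers were high, with VIM (vimentin) at 2804 and 3025 CPM in the Neoribocic libraries and 3507 and 4238 CPM in the DMSO libraries. CPM are counts scaled to a library's TMM-adjusted size. The summed level of the line's 4 markers was 6996 and 7314 CPM with Neoribocic and 8048 and 9805 CPM with DMSO. Among them CD44 and AXL were called lower (edgeR adjusted p = 0.0436 and 0.0444), and VIM and MSN were not called. That is 50% called, against 40.4% of all genes tested, and the part of these markers in the results was not tested. Of 5 luminal or epithelial markers, CDH1 (E-cadherin) and ESR1 did not exceed 0.141 and 0.649 CPM in any library, EPCAM lay at 9.30 to 9.93 CPM and ERBB2 at 65.55 to 108.5 CPM. KRT18 (keratin 18) was at 163 and 148 CPM with Neoribocic, against 231 and 310 CPM with DMSO, and was called lower (edgeR adjusted p = 0.0176). That list summed to 282 and 247.5 CPM with Neoribocic and 317 and 386 CPM with DMSO, and its part in the results was not tested. Fibroblast markers summed to 6.10 and 6.78 CPM with Neoribocic and 7.64 and 8.20 CPM with DMSO, nearly all of it COL1A1, with DCN at 0. Leukocyte, endothelial and platelet markers summed to at most 1.44 CPM in a library, with CD3E, CDH5 and GP9 at 0. In such bulk samples, fewer cells of a kind and less RNA per cell cannot be told apart. Totals were 41572094 and 43014212 counts in the Neoribocic libraries and 34774542 and 37754168 in the DMSO libraries. Mitochondrial genes held 5.76% and 7.24% of counts in the Neoribocic libraries, against 8.68% and 21.7% in the DMSO libraries, and the part of this share in the results was not tested beyond leaving those genes out.

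With Neoribocic, mRNA of ITGA5 and ITGA3 rose and that of ITGA6, ITGA2, ITGB8 and ITGB1 fell. ITGA5 was 2.56-fold higher, and ITGA6 fell to 0.274 times its DMSO level. ITGAV, ITGB3, ITGB4 and ITGB5 did not pass the test. Calls are from the quasi-likelihood test of edgeR at an adjusted p under 0.05 (Benjamini-Hochberg, over all 13879 genes tested). The 6 members called compare with a background of 40.4% of genes called in either direction, 19.1% higher and 21.3% lower, so calls were frequent in the transcriptome as a whole. Of all calls 47.2% were higher, against 59.6% when libraries were scaled by their totals. Without Neoribocic replicate 1 the members called numbered 2 and without DMSO replicate 1 they numbered 3, and 2468 and 3996 of all genes were called. In 7 of the 10 members the Neoribocic libraries lay wholly above or below the DMSO libraries, 3 above and 4 below. Over all genes tested this held for 75.1%, with 37.8% above and 37.3% below. The median log2 fold change of the 10 was -0.57, against 0.01 over all genes tested.

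Longer and AT-richer transcripts had lower fold changes in these libraries. The log2 fold change had a Spearman correlation of -0.40 with transcript length and 0.45 with GC content over 13862 genes, and genes are not independent replicates. The integrin genes were spread along GC content in the same way, and less clearly along length. ITGB8, ITGA2 and ITGAV had the longest transcripts (8751, 7869 and 7030 bases) and negative log2 fold changes. ITGB1 had the shortest (3784 bases) and also a negative one. ITGA2, ITGA6, ITGAV, ITGB1 and ITGB8 had transcripts of 37.8% to 42.9% GC, and all 5 had negative log2 fold changes. The transcripts of ITGA3, ITGA5, ITGB3, ITGB4 and ITGB5 had 52.3% to 63.7% GC, and ITGA3, ITGA5 and ITGB4 had positive log2 fold changes. After a smooth correction of each library for both properties, edgeR called 2 of the 10 members, ITGA5 and ITGA6, and the median of the 10 was -0.09. A corrected log2 fold change is therefore given for every member. The background of 40.4% of genes called is from the fit without the correction, so the 2 calls cannot be read against it.

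ITGA5 (ENSG00000161638), the alpha chain of the fibronectin receptor, stood at 230 and 223 CPM in the Neoribocic libraries, against 92.9 and 83.5 CPM in the DMSO libraries. The groups did not overlap, and replicates lay close together in both. This was a log2 fold change of 1.36 ± 0.19 (SE; edgeR adjusted p = 0.00147), and 91.6% of all genes tested had a lower one. The correction gave 1.15, with an edgeR adjusted p of 0.00433. ITGA5 kept its call in all 18 alternative settings, with log2 fold changes of 1.15 to 1.52.

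ITGA6 (ENSG00000091409), a laminin-binding chain that joins ITGB1 or ITGB4, stood at 74.9 and 97.6 CPM in the Neoribocic libraries, against 352 and 278 CPM in the DMSO libraries. Both Neoribocic libraries were far below both DMSO libraries. ITGA6 thus had a log2 fold change of -1.87 ± 0.22 (edgeR adjusted p = 9.96e-04), or -1.21 with the correction (edgeR adjusted p = 0.00388). Of all genes tested, 4.36% had a lower value. The ITGA6 call held in all 18 alternative settings, with log2 fold changes of -2.07 to -1.21.

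ITGA2 (ENSG00000164171), the collagen-binding chain, stood at 94.05 and 135 CPM in the Neoribocic libraries, against 347 and 227 CPM in the DMSO libraries. The groups did not overlap, although the libraries of each group differed by more than those of ITGA5. The log2 fold change was -1.32 ± 0.27 (edgeR adjusted p = 0.00773). Without Neoribocic replicate 1 it was -1.07 (edgeR adjusted p = 0.0573), and with the correction -0.44 (edgeR adjusted p = 0.100).

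Since ITGA2 and ITGA6 fell while ITGA5 rose, their promoters are printed to show the sequence at each start. They are RefSeq windows on GRCh38.p14 that run from 250 bases before a gene's start to 50 after it, 5′ to 3′ on the gene's strand. Capitals mark matches, on either strand, to the letters of 6 motifs. The AP-1 motif was searched as TGANTCA and the TEAD motif was searched as GGAATG. For Sp1 the letters taken were GGGCGG, and the amino acid response element was taken to read TGATGNAA. The TATA box was searched in the form TATAAA. NF-kB was searched as a near-fixed string, so variant NF-kB sites were not counted. The ITGA5 window lies at chr12:54419217-54419516 on the minus strand, the ITGA2 window at chr5:52989102-52989401 on the plus strand and the downstream of the ITGA6 windows at chr2:172427336-172427635 on the plus strand.
ITGA5: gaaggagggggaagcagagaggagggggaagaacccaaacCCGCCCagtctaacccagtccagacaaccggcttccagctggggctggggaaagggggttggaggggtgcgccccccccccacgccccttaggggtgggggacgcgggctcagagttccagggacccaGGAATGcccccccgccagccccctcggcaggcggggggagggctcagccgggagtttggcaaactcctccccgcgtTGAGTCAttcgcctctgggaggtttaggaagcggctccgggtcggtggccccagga
ITGA6: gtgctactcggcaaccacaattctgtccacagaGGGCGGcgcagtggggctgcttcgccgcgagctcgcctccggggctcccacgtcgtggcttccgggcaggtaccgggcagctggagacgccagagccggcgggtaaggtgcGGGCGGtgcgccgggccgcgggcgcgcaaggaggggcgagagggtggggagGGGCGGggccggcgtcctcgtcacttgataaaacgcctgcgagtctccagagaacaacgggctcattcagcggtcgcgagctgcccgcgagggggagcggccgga
ITGA2: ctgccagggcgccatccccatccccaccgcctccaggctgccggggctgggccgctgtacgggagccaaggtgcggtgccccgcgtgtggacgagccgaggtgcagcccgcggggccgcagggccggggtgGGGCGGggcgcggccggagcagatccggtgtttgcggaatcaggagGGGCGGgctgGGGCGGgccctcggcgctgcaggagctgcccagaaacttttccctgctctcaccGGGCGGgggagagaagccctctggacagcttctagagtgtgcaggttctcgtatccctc
The ITGA5 window held an AP-1 match that begins 6 bases before the start, a TEAD match 82 bases before it and an Sp1 match 210 bases before it. In the ITGA6 window only Sp1 matched, at 3 places, and in the ITGA2 window only Sp1, at 4 places. In these 3 windows no match overlapped another. The other ITGA6 window overlaps the printed one. Its only Sp1 match, 33 bases past its start, is the same site as the most upstream match of the printed window. That other window also held the TATA box letters 32 bases before its start, but on the strand opposite to the gene. Of all 35116 promoter windows in the RefSeq table, 7.71% held the AP-1 letters, 14% the TEAD letters and 45% the Sp1 letters, against 0.558% for NF-kB, 3.62% for the amino acid response element and 11.5% for the TATA box. Among the 12 windows of the 7 members with an entry (ITGA3, ITGB3 and ITGB4 had none), the AP-1 letters occurred in that of ITGA5 only, and the TEAD letters in those of ITGA5 and ITGB1. A match is a string of letters and does not show that a factor was bound.

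ITGA3 (ENSG00000005884), the other laminin-binding alpha chain and the partner of ITGB1 in the alpha3beta1 receptor, stood at 2249 and 2176 CPM in the Neoribocic libraries, against 1309 and 1499 CPM in the DMSO libraries. Its log2 fold change was 0.66 ± 0.21 (edgeR adjusted p = 0.0362). The groups did not overlap, but the call was weak. The adjusted p was 0.0906 without DMSO replicate 1, and 0.162 and 0.103 without Neoribocic replicates 1 and 2. A block for the replicate number gave 0.0617, and the correction brought the log2 fold change to 0.38 (edgeR adjusted p = 0.101).

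ITGAV (ENSG00000138448), the RGD-binding chain, stood at 38.25 and 61.2 CPM in the Neoribocic libraries, against 87.9 and 52.9 CPM in the DMSO libraries. The groups overlapped, since Neoribocic replicate 2 was above DMSO replicate 2. The log2 fold change was -0.50 ± 0.32 (edgeR adjusted p = 0.244), with a 95% interval of -1.25 to 0.25. It was -0.09 without DMSO replicate 1, -0.81 without DMSO replicate 2, and -0.19 and -0.88 without Neoribocic replicates 1 and 2. The correction turned it to 0.34.

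**Figure D1:**
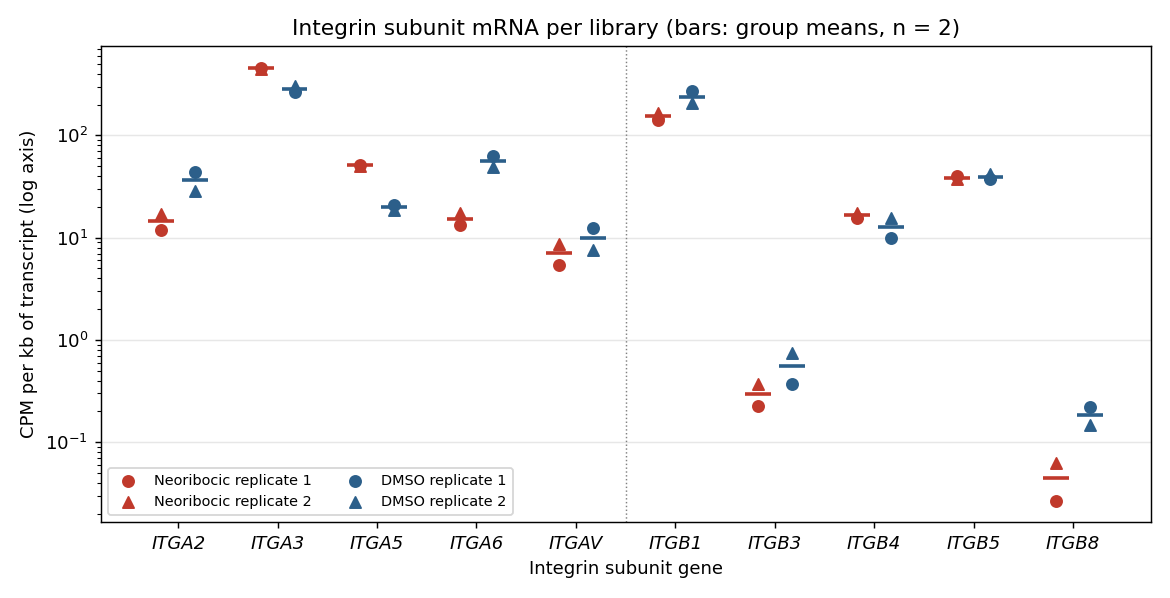
Level of each integrin gene in each library, as CPM per kb of transcript on a log axis, with alpha chains left of the dotted line and beta chains right of it; points are libraries and bars are group means (n = 2). ITGA3 and ITGB1 are the highest of their class in every library, ITGA5 is higher with Neoribocic, ITGA2 and ITGA6 are lower, and ITGB3 and ITGB8 lie under 1 CPM per kb.

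Among the beta chains, ITGB1 (ENSG00000150093), the shared partner of ITGA2, ITGA3, ITGA5 and ITGA6, stood at 540 and 630 CPM in the Neoribocic libraries, against 1025 and 791 CPM in the DMSO libraries. Its log2 fold change was -0.63 ± 0.21, with an edgeR adjusted p of 0.0446 that lay just under the threshold. The call was lost in 10 of the 18 alternative settings. The adjusted p was 0.178 without DMSO replicate 1, 0.238 and 0.0846 without Neoribocic replicates 1 and 2, and 0.0511 with the replicate number as a block. Scaling by upper-quartile factors gave 0.0892 and scaling by library totals 0.146. With the correction the log2 fold change of ITGB1 was -0.10 (edgeR adjusted p = 0.617).

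ITGB8 (ENSG00000105855), whose dimer with ITGAV activates latent TGF-beta, was the scarcest member, with 10 and 26 counts in the Neoribocic libraries, against 69 and 42 counts in the DMSO libraries. These are 0.235 and 0.548 CPM with Neoribocic and 1.95 and 1.28 CPM with DMSO, and the groups did not overlap. For ITGB8 the log2 fold change was -2.02 ± 0.54 (edgeR adjusted p = 0.0181). It was -1.69 without DMSO replicate 1 (edgeR adjusted p = 0.0861), -1.54 without Neoribocic replicate 1 (edgeR adjusted p = 0.131) and -2.76 without Neoribocic replicate 2. The correction gave -1.12 (edgeR adjusted p = 0.0941).

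ITGB3 (ENSG00000259207), the beta chain of the vitronectin receptor alphaVbeta3, had 38 and 71 counts in the Neoribocic libraries, against 53 and 98 in the DMSO libraries. In CPM these are 0.895 and 1.495 with Neoribocic and 1.494 and 2.99 with DMSO. Neoribocic replicate 2 reached the level of DMSO replicate 1, so the groups overlapped. For ITGB3 the log2 fold change was -0.90 ± 0.46 (edgeR adjusted p = 0.149, 95% interval -1.96 to 0.16) and -0.89 with the correction. It was -0.31 without DMSO replicate 2 and -1.32 without DMSO replicate 1, and -0.57 and -1.32 without Neoribocic replicates 1 and 2. In GENCODE release 29, 51.6% of ITGB3 exon bases are shared with another protein-coding gene on the same strand, which had 0 counts in all 4 libraries. Whether reads from the shared bases were counted for ITGB3 is not stated.

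ITGB4 (ENSG00000132470), the hemidesmosomal beta chain, stood at 93.0 and 103 CPM in the Neoribocic libraries, against 58.8 and 91.2 CPM in the DMSO libraries. Both Neoribocic libraries were above both DMSO libraries, but DMSO replicate 2 was close to them. The log2 fold change was 0.39 ± 0.24 (edgeR adjusted p = 0.232, 95% interval -0.17 to 0.94), and 0.02 with the correction. It was 0.10 without DMSO replicate 1 and 0.75 without DMSO replicate 2.

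ITGB5 (ENSG00000082781), the beta chain of the vitronectin receptor alphaVbeta5, had overlapping levels, at 174.5 and 163.5 CPM in the Neoribocic libraries and 163 and 182 CPM in the DMSO libraries. The log2 fold change was -0.03 ± 0.18 (edgeR adjusted p = 0.913). Its 95% interval of -0.45 to 0.39 spans 0.733 to 1.31 times the DMSO level, and the correction gave -0.076 (edgeR adjusted p = 0.668). The sign turned with upper-quartile factors (0.092) and library totals (0.15) and without DMSO replicate 2 (0.062) or Neoribocic replicate 2 (0.02).

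**Figure D2:**
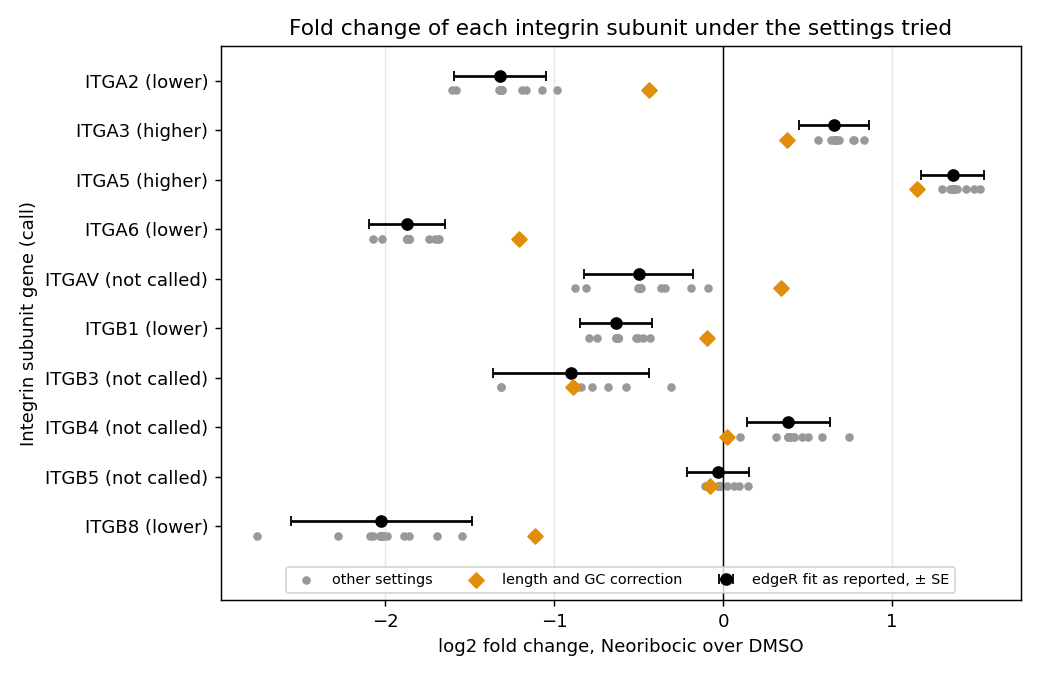
Log2 fold change of each integrin gene, Neoribocic over DMSO. Black points with bars are the edgeR estimates ± SE (n = 2 per group), grey points the alternative settings and orange diamonds the correction for transcript length and GC content. ITGA5 stays at 1.15 or above and ITGA6 at -1.21 or below, while the correction moves ITGA2, ITGB1 and ITGAV towards or past 0.

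Per length of transcript, the order of the alpha chains differed between the groups. In Neoribocic cells it was ITGA3 (453 ± 10.6 CPM per kb, SD, n = 2), ITGA5 (50.9 ± 1.10), ITGA6 (15.4 ± 2.86), ITGA2 (14.6 ± 3.72) and ITGAV (7.07 ± 2.31). In DMSO cells it was ITGA3 (287 ± 27.5 CPM per kb), ITGA6 (56.1 ± 9.33), ITGA2 (36.5 ± 10.8), ITGA5 (19.9 ± 1.49) and ITGAV (10.0 ± 3.52). ITGA6 and ITGA2 overlapped in the Neoribocic libraries, and no other neighbours in either order did. ITGA5 thus stood above ITGA6 and ITGA2 with Neoribocic and below both with DMSO. The beta chains kept one order in all 4 libraries, ITGB1, ITGB5, ITGB4, ITGB3 and ITGB8. ITGB1 was at 155 ± 16.8 CPM per kb with Neoribocic and 240 ± 43.8 with DMSO, and ITGB5 at 38.7 ± 1.78 and 39.4 ± 2.98. ITGB4 was at 16.6 ± 1.17 CPM per kb with Neoribocic and 12.7 ± 3.87 with DMSO. With 2 libraries per group the smallest exact permutation p for such a value is 0.33, so these levels and the shares below are descriptions without a test.

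ITGA3 made up 84.8% and 82.7% of the summed level of the 5 alpha chains in the Neoribocic libraries, against 65.7% and 74.6% in the DMSO libraries. ITGA6 made up 2.46% and 3.23% with Neoribocic and 15.4% and 12.0% with DMSO, and ITGA2 2.20% and 3.20% with Neoribocic and 10.8% and 7.01% with DMSO. The share of ITGA5 was 9.52% and 9.30% in the Neoribocic libraries and 5.12% and 4.57% in the DMSO libraries. The share of ITGAV was 1.003% and 1.62% with Neoribocic and 3.06% and 1.83% with DMSO. None of the 5 alpha chains overlapped between the groups in its share. For ITGA3 and ITGAV, however, the DMSO replicates differed by more than the gap between the groups. Separation of the groups was common, since CPM levels did not overlap for 75.1% of all genes tested. Levels and shares are given without the correction for length and GC content. Among the beta chains ITGB1 held 71.9% and 75.1% with Neoribocic, against 85.0% and 78.3% with DMSO. ITGB4 held 7.91% and 7.84% with Neoribocic and 3.12% and 5.78% with DMSO. For both ITGB1 and ITGB4 the DMSO replicates differed by more than the gap between the groups. All these values are shares of mRNA and give no amount of assembled receptor.

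Ratios between partners, per length of transcript and within a library, followed from these levels. ITGA6 over ITGB4, the chains of the hemidesmosomal receptor, was 0.848 and 1.0 in the Neoribocic libraries, against 6.31 and 3.21 in the DMSO libraries. ITGA5 over ITGB1 was 0.362 and 0.301 with Neoribocic, against 0.0772 and 0.0900 with DMSO. ITGA3 over ITGB1 was 3.22 and 2.67 with Neoribocic, against 0.989 and 1.47 with DMSO. In each of these 3 ratios the groups did not overlap, but the length and GC correction made the differences smaller. For ITGA6 over ITGB4 the DMSO replicates differed by more than the gap between the groups. The log2 fold change of ITGA6 minus that of ITGB4 was -2.25, or -1.23 with the correction. For ITGA5 minus ITGB1 it was 1.99, or 1.24 with the correction, and for ITGA3 minus ITGB1 1.29, or 0.48 with the correction. The ratio of ITGAV to ITGB5 did not separate the groups, at 0.136 and 0.233 with Neoribocic and 0.335 and 0.181 with DMSO.

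**Figure D3:**
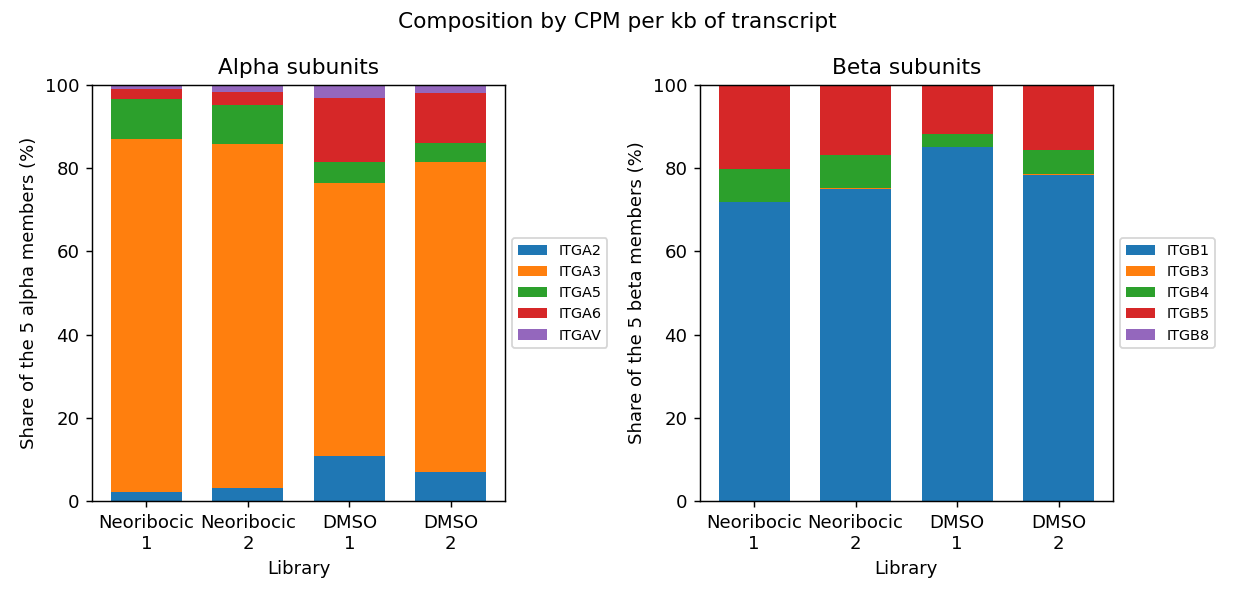
Share of each integrin gene in the summed CPM per kb of the 5 alpha chains (left) and the 5 beta chains (right), in percent, 1 bar per library. In the Neoribocic libraries ITGA3 and ITGA5 take larger shares and ITGA2 and ITGA6 smaller ones than in the DMSO libraries, and the share of ITGB1 is smaller.

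The table held 26 genes with integrin alpha or beta symbols. Of the 16 that are not among the 10, 7 were tested, 2 were called higher and 1 lower, or 42.9% called, against 40.4% of all genes tested. ITGA1, the other major collagen-binding partner of ITGB1, fell with ITGA2. It stood at 11.5 and 14.5 CPM in the Neoribocic libraries, against 53.8 and 40.7 CPM in the DMSO libraries, a log2 fold change of -1.86 ± 0.25 (edgeR adjusted p = 0.00143; corrected -0.85, adjusted p = 0.0102). ITGA7, a laminin-binding chain best known from muscle, rose by 2.09 ± 0.35 on the log2 scale (edgeR adjusted p = 0.00299) from a low level, with 4.07 and 3.90 CPM in the Neoribocic libraries and 1.10 and 0.762 CPM in the DMSO libraries. ITGAE, which binds E-cadherin in lymphocytes, rose by 1.30 ± 0.30, a call lost without Neoribocic replicate 1 (edgeR adjusted p = 0.0686). Without that library 1 gene of the 16 was called higher, and without DMSO replicate 1 it was 3. ITGA10, another collagen-binding chain, was at 10.9 ± 0.0842 CPM with Neoribocic and 7.72 ± 3.28 CPM with DMSO and was not called. Its DMSO libraries stood at 10.04 and 5.40 CPM, and its log2 fold change of 0.49 became 1.01 without DMSO replicate 1. ITGB2, the beta chain of leukocyte integrins, stood at 54.3 and 42.4 CPM in the Neoribocic libraries and 40.6 and 41.3 CPM in the DMSO libraries and was not called. ITGA4 and ITGA8 had 0 counts in every library, and ITGB6 did not exceed 0.0610 CPM.

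Laminins, the ligands of ITGA3 and ITGA6, changed in both directions. Of 11 chains 10 were tested, with a median log2 fold change of -0.04. Of these, 3 were called higher and 3 lower, or 60% called, against 40.4% of all genes tested. LAMB3, a chain of laminin 332, which both receptors bind, stood at 661 and 667 CPM with Neoribocic, against 379 and 342 CPM with DMSO, a log2 fold change of 0.88 ± 0.19 (edgeR adjusted p = 0.00759). LAMA3, the chain of the same laminin that the receptors recognise, fell by 1.38 ± 0.21 (corrected -0.80) to 36.9 and 41.0 CPM, against 111 and 91.5 CPM with DMSO. LAMB2 rose by 0.84, LAMB1 fell by 1.37 and LAMA4 fell by 1.68, the last at no more than 3.05 CPM. The call of LAMB2 was lost without DMSO replicate 1 or Neoribocic replicate 1 (edgeR adjusted p = 0.0574 and 0.0864). LAMA4 lost its call without Neoribocic replicate 1 (edgeR adjusted p = 0.0584). Higher calls among laminins numbered 1 without DMSO replicate 1 and 1 without Neoribocic replicate 1, and all calls numbered 3 without Neoribocic replicate 1.

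Of 9 collagen genes 6 were tested and 16.7% were called, against 40.4% of all genes tested. The only gene called was COL6A2, a chain of collagen VI. It stood at 23.7 and 18.5 CPM with Neoribocic and 6.74 and 9.33 CPM with DMSO, a log2 fold change of 1.39 ± 0.27 (edgeR adjusted p = 0.00511; corrected 0.80). COL6A1, another chain of collagen VI, named after its values were seen, had 131 and 134 CPM with Neoribocic and 76.3 and 100.5 CPM with DMSO, a log2 fold change of 0.58 ± 0.21 just short of a call (edgeR adjusted p = 0.0522; corrected 0.16). It was called in 7 alternative settings, among them upper-quartile factors, library totals, DESeq2 and the fit without DMSO replicate 2, where the list had 2 calls. The most abundant, the basement membrane chain COL4A2, was at 247 ± 7.69 CPM with Neoribocic and 211 ± 5.91 CPM with DMSO and was not called.

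Among the ligands with RGD motifs and matricellular proteins, 14 of 15 were tested, 2 rose and 5 fell, with a median of -0.51 (corrected -0.54). The share called was 50%, against 40.4% of all genes tested. FN1, fibronectin, named after its values were seen because it is the ligand of ITGA5, fell while ITGA5 rose. It stood at 349 and 321 CPM with Neoribocic, against 626 and 859 CPM with DMSO, a log2 fold change of -1.15 ± 0.22 (edgeR adjusted p = 0.00491; corrected -0.70, adjusted p = 0.0292). FBN1, the microfibril protein fibrillin 1, fell by 1.36 (corrected -0.51), THBS1 (thrombospondin 1) by 1.24 (corrected -0.57) and CCN2, a matricellular growth factor, by 1.25 (corrected -1.46). MFGE8, an RGD protein that bridges apoptotic cells to ITGAV receptors, rose by 1.09 ± 0.22, a call lost with the correction (0.44, edgeR adjusted p = 0.0549). VTN (vitronectin) was called higher at 0.565 and 0.842 CPM with Neoribocic, against 0.0846 and 0.213 CPM with DMSO. That call was lost without DMSO replicate 1 or either Neoribocic library (edgeR adjusted p = 0.119, 0.104 and 0.171), with DESeq2 (0.0729) and with the correction (0.0730), and its log2 fold change of 2.23 became 3.03 without DMSO replicate 2. Without DMSO replicate 1, Neoribocic replicate 1 or Neoribocic replicate 2 the higher calls numbered 1. CCN1, the most abundant, was at 3496 ± 45.7 CPM with Neoribocic and 2502 ± 375.5 CPM with DMSO and was not called.

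Integrin tails connect to actin through adaptors and signal through kinases. Of 35 such genes 33 were tested, 11 fell and 3 rose, with a median of -0.13 (corrected -0.39). The share called, 42.4%, was near the 40.4% of all genes tested. NEDD9, a scaffold of the focal adhesion kinase pathway, fell by 2.94 ± 0.38 to 0.612 and 0.653 CPM, against 3.81 and 5.98 CPM with DMSO (edgeR adjusted p = 0.00118). TNS2 (tensin 2) fell by 1.30 ± 0.22 and TLN2, the less abundant talin, by 1.28 ± 0.22 (corrected -1.61 and -0.76). FERMT3, the kindlin of blood cells, rose by 1.52 ± 0.31 at no more than 7.72 CPM, SRC, the tyrosine kinase, by 0.67 ± 0.19, and ILK, a pseudokinase of the adhesion complex, by 0.65 ± 0.20. Of ILK exon bases 78.5% overlap genes on the opposite strand, and the correction brought ILK to 0.19 (edgeR adjusted p = 0.331). Calls of SRC and ILK were both lost without DMSO replicate 1 (edgeR adjusted p = 0.0960 and 0.115), DMSO replicate 2 (0.0638 and 0.0877) or Neoribocic replicate 1 (0.111 and 0.227), that of SRC also without Neoribocic replicate 2 (0.0658), and that of FERMT3 without Neoribocic replicate 1 (0.0540). Without Neoribocic replicate 1 there were 8 lower and 0 higher calls, and without DMSO replicate 1 or 2 there was 1 higher call. The actin crosslinker FLNA was at 2232 ± 67.5 CPM with Neoribocic and 1740 ± 1.17 CPM with DMSO and was not called. It led the list in the Neoribocic libraries, while ACTN4 (alpha-actinin 4), named after its values were seen, led in the DMSO libraries, with 1914 and 1725 CPM with Neoribocic and 1842 and 2428 CPM with DMSO.

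Of 16 genes that inactivate integrins or carry them through endosomes, 14 were tested, 5 rose and 1 fell, with a median of 0.24 (corrected 0.28). Here too the share called, 42.9%, was near that of all genes tested, 40.4%. SNX17, a sorting nexin that recycles ITGB1, stood at 113 and 88.4 CPM with Neoribocic, against 37.5 and 37.2 CPM with DMSO, a log2 fold change of 1.43 ± 0.21 (edgeR adjusted p = 0.00194; corrected 0.94). DAB2, a clathrin adaptor for ITGB1 endocytosis, fell by 1.56 ± 0.23 to 27.6 and 30.3 CPM, against 73.6 and 97.6 CPM with DMSO (edgeR adjusted p = 0.00172; corrected -1.13). ACAP1, a GTPase-activating protein for ARF6 in ITGB1 recycling, rose by 2.16 ± 0.47 at no more than 3.58 CPM, and by 2.82 without DMSO replicate 2, and lost its call without Neoribocic replicate 1 (edgeR adjusted p = 0.0781). SHARPIN, an integrin inactivator, rose by 0.90 ± 0.25 but stood at 0.08 with the correction, and lost its call without DMSO replicate 1 or Neoribocic replicate 1 (edgeR adjusted p = 0.123 and 0.175). Higher calls numbered 2 without DMSO replicate 1, 3 without DMSO replicate 2 and 1 without Neoribocic replicate 1. EHD1, an endosomal recycling ATPase and the most abundant of these genes, was at 226 ± 16.8 CPM with Neoribocic and 187 ± 10.9 CPM with DMSO and was not called.

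Membrane proteins that associate with integrins were mostly higher: 8 of 12 rose and 1 fell, with a median of 0.90 (corrected 0.36), so that 75% were called, against 40.4% of all genes tested. SLC3A2, the CD98 heavy chain that binds beta tails and carries amino acid transporters, rose by 1.92 ± 0.24 to 669 and 472 CPM, against 135 and 167 CPM with DMSO (edgeR adjusted p = 0.00108; corrected 1.40). SDC4, the syndecan that binds fibronectin beside ITGA5 and ITGB1, stood at 293 and 303 CPM with Neoribocic and 115 and 118 CPM with DMSO, a log2 fold change of 1.35 ± 0.18 (corrected 1.34). The tetraspanin gene CD81 rose by 1.30 ± 0.21 (corrected 0.49). CAV1, caveolin 1, fell by 1.42 ± 0.19 to 220 and 227 CPM, against 607 and 587 CPM with DMSO (edgeR adjusted p = 0.00128). BSG (basigin), the most abundant, rose by 0.94 ± 0.21, a call lost without Neoribocic replicate 1 (edgeR adjusted p = 0.0772) and with the correction (0.24, adjusted p = 0.212). Higher calls numbered 5 without Neoribocic replicate 1 and 5 with the correction.

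Of the 3 hemidesmosome partners of ITGB4, 33.3% were called, against 40.4% of all genes tested. The called gene, DST, fell by 2.76 ± 0.26, to 69.0 and 73.8 CPM with Neoribocic, against 597 and 370 CPM with DMSO (edgeR adjusted p = 6.13e-04, corrected -1.67). DST encodes dystonin, whose epithelial form BP230 ties the hemidesmosome to keratin, and gene counts do not tell its isoforms apart. PLEC (plectin), which binds the ITGB4 tail, was at 4621 ± 144 CPM with Neoribocic and 3628 ± 191 CPM with DMSO and was not called. The remaining gene, COL17A1, named only to complete the list, did not exceed 4.61 CPM in any library and was not called.

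**Figure D4:**
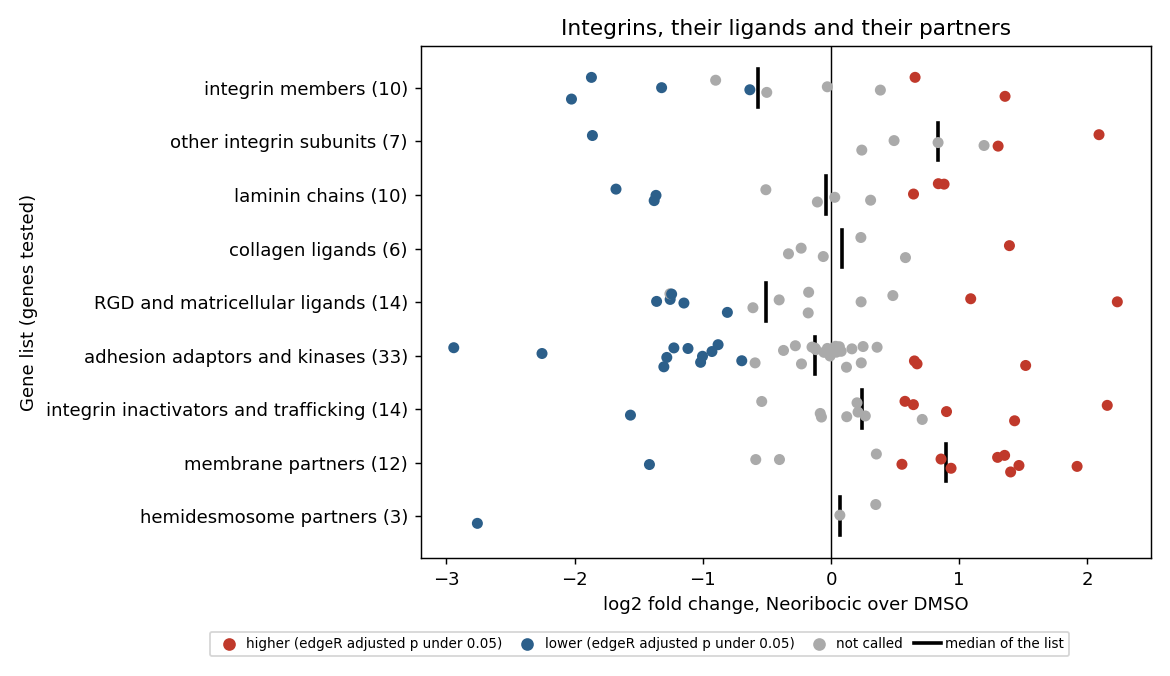
Log2 fold change, Neoribocic over DMSO, of each tested gene of the integrin members and of 8 lists of related genes (number tested in brackets). Red points are called higher and blue points lower by edgeR at an adjusted p under 0.05, and black bars are list medians, from -0.57 for the integrin members to 0.90 for the membrane partners.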

How the data were processed

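The deposited values were raw counts per Ensembl gene, per the file headers, with no normalization by the authors. Aligner, counter, strand setting and human build are not stated. Mouse builds (GRCm38, mm10) stand in the submitters' processing notes, although the gene IDs are human. Genes were kept with filterByExpr, scaled by TMM and tested with edgeR 4.0.16 in R 4.3.3 (robust glmQLFit, glmQLFTest, group as the only term). P-values were adjusted over all genes tested. The SE of a log2 fold change was its size over the square root of F. Transcript length and GC content came from 1 GENCODE release 29 transcript per gene, the longest principal one. The correction used mgcv 1.9.3 and entered the edgeR model as offsets.

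Among counts of 1 to 19 the even share was 62.3% to 65.4%, so a count may not be 1 independent fragment. Replicates correlated at 0.982 (Neoribocic) and 0.977 (DMSO) on log2 CPM across genes, and 68.6% and 73.7% of genes differed between them beyond counting noise.

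The members, the lists and the rule for naming genes were chosen with earlier results of these data known. Named are the 10 members, other integrins of at least 5 CPM or past the threshold, and from each list up to 3 called genes per direction with the smallest p and the most abundant gene. A gene that this rule would name is not reported here. The fit was tested on simulated data, where it had little power for small effects. It found 0 of 67 genes given a 1.5-fold difference, 15 of 67 given 2-fold and 63 of 66 given 4-fold. No false calls were made. The lack of a call therefore does not show that a gene stayed the same. The alternatives were other scalings, count filters, DESeq2 1.42.0, limma-voom (limma 3.58.1), a non-robust fit, a replicate block, each library left out, a threshold of 0.01, halved counts, no mitochondrial genes, and the correction with and without the block.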

Additional observations from a re-analysis of the deposited data

How the results depend on the processing

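Of the 10 integrin genes, 6 were called. ITGA5 and ITGA6 kept their call and direction in all 18 alternative settings. The cause of the changes below was not tested, except that the threshold of 0.01 and the settings with a library left out are stricter or use fewer samples by construction. Members called, as all, higher and lower, numbered 2, 1 and 1 with the length and GC correction, also with the block added, and 3, 1 and 2 at a threshold of 0.01. Leaving out a library gave 2 to 6 called members, 1 to 2 higher and 1 to 4 lower. Genes called overall numbered 5610, against 2468 without Neoribocic replicate 1 (1001 higher, 1467 lower) to 4536 without Neoribocic replicate 2 (2215 higher), with 1718 and 1671 higher calls without DMSO replicates 1 and 2, 2382 lower calls without DMSO replicate 2, and 2883 (1138 higher, 1745 lower) at 0.01. The sign of ITGAV turned with the correction (0.34, or 0.35 with the block), and that of ITGB5 with upper-quartile factors (0.092), library totals (0.15), without DMSO replicate 2 (0.0617) or Neoribocic replicate 2 (0.0202), while without DMSO replicate 1 it was -0.105. Those scalings moved the median of all genes to 0.13 and 0.18, and gave 56.8% and 59.6% of calls as higher, against 47.2% with TMM.

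The labels number replicates 1 and 2 in both groups, but the deviations of same-numbered libraries correlated at -0.05, so the numbers were not taken as pairs. With the replicate number as a block, 4 members were called, 1 higher and 3 lower. The share of all genes called with the correction or with the block is not given. Counts of calls from those fits therefore have no background beside them. With coding length in place of transcript length, ITGB4 held 5.37% of the beta chains with Neoribocic, and ITGA2 held 3.82% of the alpha chains with Neoribocic and 12.0% with DMSO. ITGB8 and ITGB3, with at most 98 counts in a library, are limited by their low counts. For ITGB3 it is not known whether reads from exon bases shared with another gene were left out of the counts.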
